A study of Caenorhabditis elegans with 2 samples.

Results

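Of the 346 snoRNA genes that Ensembl release 115 annotates on the C. elegans assembly WBcel235 (ce11), 183 lay wholly within a protein-coding gene on the same strand, and these nested snoRNA genes are described here against the other 163. The other snoRNA genes comprised 33 inside a protein-coding gene on its opposite strand and 130 outside protein-coding genes. The 183 members lay in 156 host genes, of which 133 held 1 member, 20 held 2 and 3 held more. Where a member lay in 2 protein-coding genes, as 3 members did, the shorter was taken as its host. An intron of every host transcript that spanned the gene held 145 of the members (79.2%).

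The data are chromatin immunoprecipitation and sequencing (ChIP-seq) of CEH-82, a homeodomain protein encoded by ceh-82 (F45C12.2), in whole L1 larvae. All material came from strain OP212, whose genotype the labels give as unc-119(ed3) III; ddEx58, and males and females were pooled. The strain carried the protein fused to GFP and FLAG at its C-terminus. The 2 biological replicates formed 1 group, with no second condition. The antibody is labelled ceh-82, so whether the tag or the protein itself was recognised is unclear. They also mention an insertion, whereas the strain name holds an extrachromosomal array, and no source used here gives the promoter of the tagged gene. Chromatin from an untagged strain was not analysed here, so the part of signal unrelated to CEH-82 was not tested in any result.

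Small nucleolar RNAs (snoRNAs) guide the chemical modification of ribosomal and other RNAs in the nucleolus. Box C/D snoRNAs direct methylation of the ribose, and box H/ACA snoRNAs direct the conversion of uridine to pseudouridine. In most animals they are cut out of the introns of genes transcribed by RNA polymerase II, so that the host promoter makes them too, whereas in worms a part of the intronic snoRNA genes is known to have promoters of its own. The B box and the A box are promoter letters of genes read by RNA polymerase III, best known from inside tRNA genes, and the proximal sequence element (PSE) lies upstream of genes for small nuclear RNAs.

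The deposited files were peak lists. The optimal list, which keeps peaks whose ranks repeat between replicates, held 2346 peaks. The relaxed list of the pooled data held 20459 peaks and the relaxed list of each replicate 30000, and relaxed lists hold background too. Each peak has a summit, the position of its highest signal, and a signal value of the authors without replicate error, so ranks in each replicate are given beside it. A snoRNA gene was scored as having a summit when one lay inside it or within 100 bp of either end. Read counts were not given, so the depth is unknown. Intervals on shares are 95% Wilson intervals, intervals on differences of shares are 95% Newcombe intervals, and both cover counting error only.

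The letters upstream of most of the 15 strongest nested genes are shown first because the summits lay near them. Each line gives the 100 bases before the annotated start and the first 10 bases of the gene, 5′ to 3′ on its strand, read from RefSeq's copy of WBcel235. In the first set the capitals mark AACNNG followed, after 5 bases, by TGTC, called the upstream element below. These letters were chosen after the sequences had been seen. The windows were chrV:8500479-8500588 (plus strand) for ZK994.7, chrV:8228960-8229069 (minus strand) for C16D9.11, chrV:8349008-8349117 (plus strand) for C08D8.3, chrIV:9511457-9511566 (minus strand) for smy-2, chrII:11224082-11224191 (plus strand) for T06D8.11 and chrV:12491180-12491289 (plus strand) for W04D2.7.
ZK994.7: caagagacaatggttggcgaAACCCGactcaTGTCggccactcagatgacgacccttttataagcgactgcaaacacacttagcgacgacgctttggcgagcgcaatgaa
C16D9.11: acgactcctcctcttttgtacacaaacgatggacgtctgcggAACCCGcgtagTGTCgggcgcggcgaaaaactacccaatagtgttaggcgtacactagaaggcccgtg
C08D8.3: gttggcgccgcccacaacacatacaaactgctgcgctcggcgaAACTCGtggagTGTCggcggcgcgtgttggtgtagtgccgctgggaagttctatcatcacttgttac
smy-2: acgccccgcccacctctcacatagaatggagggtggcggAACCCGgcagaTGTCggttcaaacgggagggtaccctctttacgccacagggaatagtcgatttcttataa
T06D8.11: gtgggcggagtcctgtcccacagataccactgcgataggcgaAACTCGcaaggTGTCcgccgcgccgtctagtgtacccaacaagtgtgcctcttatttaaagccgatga
W04D2.7: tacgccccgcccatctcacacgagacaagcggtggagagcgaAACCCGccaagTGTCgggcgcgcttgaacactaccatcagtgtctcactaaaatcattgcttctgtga
In all 6 lines the pair of capital blocks lay upstream of the gene on its own strand, and the 5 bases between the blocks differed from gene to gene. Some bases beside the blocks were shared. The letters gcga stood before the first block in ZK994.7, C08D8.3, T06D8.11 and W04D2.7, and gg followed the second block in all except T06D8.11. How far the shared letters reach beyond the capitals was not tested.

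The second set of genes had a strong peak and no upstream element. Capitals mark the B box letters GTTCNANNC and the A box-like letters TGGNNNA followed, after 2 bases, by GG, of which the A box-like letters were also chosen after the sequences had been seen. The windows were chrV:19643178-19643287 (minus strand) for Y43F8C.22, chrII:10840217-10840326 (plus strand) for M106.6, chrIV:2408626-2408735 (minus strand) for Y38F2AR.14, chrV:12303608-12303717 (plus strand) for C51F7.3 and chrV:9970262-9970371 (minus strand) for C27H6.5.
Y43F8C.22: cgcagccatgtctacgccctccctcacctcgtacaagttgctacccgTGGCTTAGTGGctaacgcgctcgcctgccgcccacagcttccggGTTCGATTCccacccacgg
M106.6: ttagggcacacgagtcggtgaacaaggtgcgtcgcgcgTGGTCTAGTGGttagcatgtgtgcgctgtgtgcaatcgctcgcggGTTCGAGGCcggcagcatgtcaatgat
Y38F2AR.14: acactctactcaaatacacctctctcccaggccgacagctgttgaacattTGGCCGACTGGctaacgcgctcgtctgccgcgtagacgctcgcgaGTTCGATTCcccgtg
C51F7.3: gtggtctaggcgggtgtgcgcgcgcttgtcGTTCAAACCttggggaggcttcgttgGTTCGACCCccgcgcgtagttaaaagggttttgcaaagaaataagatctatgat
C27H6.5: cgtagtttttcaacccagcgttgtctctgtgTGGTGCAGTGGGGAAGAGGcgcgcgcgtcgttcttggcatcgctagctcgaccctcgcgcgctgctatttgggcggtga
In Y43F8C.22, M106.6 and Y38F2AR.14 the A box-like letters stood before the B box. The line of C51F7.3 held the B box letters in 2 places and that of C27H6.5 held the A box-like letters alone. These first 2 sets show only lines with capitals. Of the 15 strongest members, C51F7.4, D1046.6 and W08G11.6 held none of the marked letters in such a window and are not shown. Y37E3.20, which held the upstream element, is not shown either.

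The third set shows examples from the 52 members without a summit whose host promoters had one. Here the capitals mark exons of the host gene. R151.11 lies in rpl-6, for a protein of the large ribosomal subunit, and its window was chrIII:7208513-7208622 (plus strand). K07C5.11 lies in nol-56, for a core protein of box C/D snoRNA particles, and its window was chrV:10352827-10352936 (minus strand).
R151.11: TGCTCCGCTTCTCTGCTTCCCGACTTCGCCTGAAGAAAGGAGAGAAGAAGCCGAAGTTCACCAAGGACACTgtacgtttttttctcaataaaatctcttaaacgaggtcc
K07C5.11: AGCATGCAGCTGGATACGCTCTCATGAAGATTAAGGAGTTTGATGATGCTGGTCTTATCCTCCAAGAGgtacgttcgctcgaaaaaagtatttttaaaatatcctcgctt
Most of the 100 bases before these genes were host exon, and neither line held the upstream element or the A or B box letters. Other members of the same kind differed, and some are named here for that reason. K12D12.7 and K12D12.8 in top-2 lay 129 and 204 bp from the preceding exon, and Y37E3.21 and Y37E3.22 in Y37E3.8 held the B box letters.

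Nested snoRNA genes had a CEH-82 summit less often than the other snoRNA genes. An optimal summit lay within 100 bp of 25 of 183 nested genes (13.7%, 9.43 to 19.4), against 50 of 163 other snoRNA genes (30.7%, 24.1 to 38.1), where 21.7% of all 346 had one. The difference was −17 percentage points (−25.6 to −8.3). By the pooled relaxed list, 40 of 183 nested genes (21.9%, 16.5 to 28.4) had a summit, against 73 of 163 others (44.8%, 37.4 to 52.5), where 32.7% of all had one, a difference of −22.9 points (−32.3 to −13). Nested genes were thus below the share of all snoRNA genes in both lists.

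The difference was seen against both kinds of other snoRNA gene. With the optimal list it was −19.7 points (−37.2 to −4.93) against genes on the opposite strand of a protein-coding gene, of which 11 of 33 had a summit (33.3%, 19.8 to 50.4). It was −16.3 points (−25.7 to −7.13) against genes outside protein-coding genes, of which 39 of 130 had one (30%, 22.8 to 38.4). With the pooled relaxed list the interval of the difference from the opposite-strand genes held 0 (−14.5 points, −32.4 to 1.1). At 50 bp in place of 100 bp the interval of the difference between nested and other genes held 0 as well (−3.46 points, −10.1 to 2.9).

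**Figure D1:**
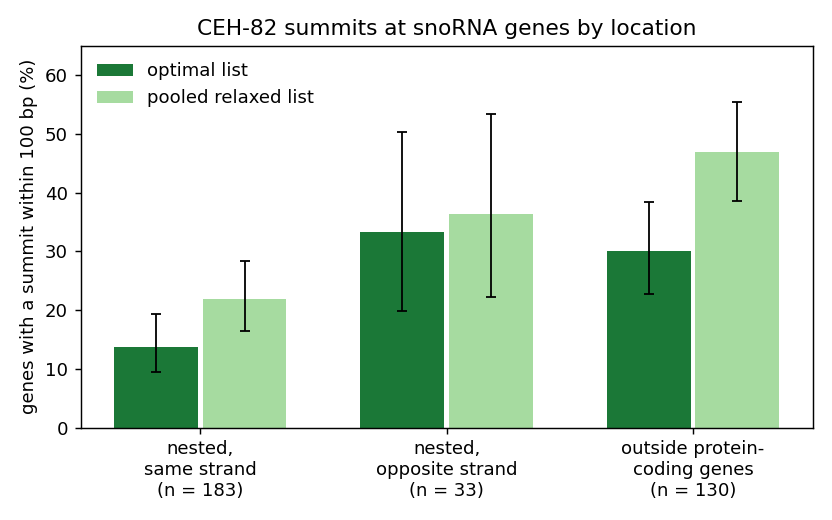
Share of snoRNA genes with a CEH-82 summit within 100 bp (percent, y axis) for genes nested on the same strand, nested on the opposite strand and outside protein-coding genes, by the optimal and the pooled relaxed list. Bars are shares and lines 95% Wilson intervals, and the same-strand genes have the lowest share in both lists (13.7% and 21.9%).

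Summits near protein-coding gene starts were found at other snoRNA genes and not at members. None of the 25 summits at nested genes lay within 500 bp of a protein-coding gene start, against 13 of 50 (26%) at other snoRNA genes. Without the genes that had such a summit, the share was 25 of 183 nested genes (13.7%) and 37 of 150 others (24.7%), a difference of −11 points (−19.6 to −2.56). Among snoRNA genes whose own start was over 500 bp from every protein-coding start, 25 of 143 nested genes (17.5%) had a summit, against 38 of 136 others (27.9%).

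The replicates placed summits at nearly the same members. Among the 2346 strongest peaks of replicate 1 a summit lay within 100 bp of 26 nested genes, and among those of replicate 2 of 25. For the other snoRNA genes these counts were 48 and 47. Over all 183 members, 24 had such a summit in both replicates, 3 in 1 replicate and 156 in neither. Of the 25 members with an optimal summit, 25 had one among the strongest peaks of replicate 1 and 23 among those of replicate 2, and of the 158 without, 1 and 2 did. The split by optimal summit is no independent check, since the optimal list keeps peaks that repeat between these replicates. The 25 members shared 24 peaks, and the rank of these in replicate 1 followed their rank in replicate 2 (Spearman's rho 0.789 over 24 peaks, which the optimal list had already selected for repeating). Of the 25 members, 20 stood on the stronger 1173 peaks of the optimal list.

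**Figure D2:**
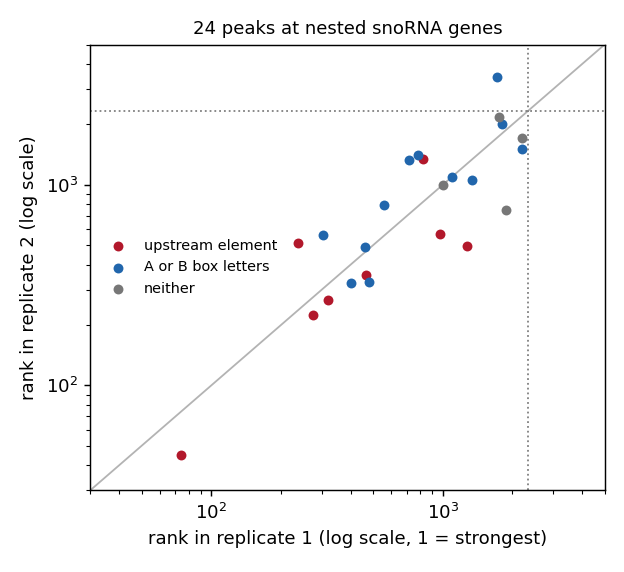
Rank of the 24 optimal peaks at nested snoRNA genes in replicate 1 (x axis, log scale) and replicate 2 (y axis, log scale), coloured by the letters before and in the gene, with the diagonal of equal ranks and dotted lines at rank 2346. The strongest, at ZK994.7, ranked 74 and 45, and 1 peak lies beyond rank 2346 in replicate 2.

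ZK994.7, a snoRNA gene of 67 bp in pxn-1, the gene of a peroxidasin of the extracellular matrix, had the strongest peak of any member. Its signal was 255, rank 51 of the optimal list, and it ranked 74 in replicate 1 and 45 in replicate 2. The summit lay 30 bp upstream of the start. C16D9.11, in rol-3, which encodes a receptor tyrosine kinase-like protein, had a signal of 137 and ranks of 274 and 225, with its summit 61 bp upstream. Both genes carry the upstream element and lay far from the host start, at 5690 and 9440 bp.

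Next in strength were 8 members with signals of 100.5 to 127. Y37E3.20, in pcyt-2.1, a gene of phosphatidylethanolamine synthesis, had a signal of 127 and ranked 320 in replicate 1 and 268 in replicate 2. Y43F8C.22, in Y43F8C.7, had a signal of 118 and ranked 403 and 323. C08D8.3, in C08D8.1, had 114 and ranked 237 and 515, and smy-2, in C33A12.3, had 111 and ranked 466 and 355. These 4 were among the 515 strongest peaks in both replicates.

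C51F7.3 and C51F7.4, neighbours in frm-7, a gene of a FERM-domain protein, shared a peak with a signal of 110.5 and ranks of 481 and 326. Its summit lay 39 bp inside C51F7.4 and 70 bp upstream of C51F7.3, so a single peak scored both. M106.6, in mix-1, which encodes an SMC subunit of condensin, had a signal of 107 and ranked 305 and 565. Y38F2AR.14, in Y38F2AR.12, had 100.5 and ranked 460 and 490.

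Of the 15 strongest, 5 more had signals of 64.0 to 82.5. C27H6.5 lies in unc-41, the gene of a stonin of synaptic vesicle recycling, and had 82.5, with ranks of 556 and 792. T06D8.11 in plpr-1 had 82.0, with ranks of 975 and 569. W04D2.7 in inx-11, which encodes an innexin of gap junctions, had 79.7, with ranks of 1275 and 493. D1046.6 in cfim-2, the gene of a subunit of an mRNA cleavage factor, had 67.2, with ranks of 1003 and 996. W08G11.6 in W08G11.3 had 64.0, with ranks of 1878 and 749, the widest gap between the replicates among these 15.

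Over all 24 peaks the signal ran from 33.9 to 255 with a median of 73.5. The median was 60.5 over the 50 peaks at other snoRNA genes and 55.4 over all optimal peaks. Peaks within 500 bp of host gene starts had a median of 82.3 over 39 peaks. A peak at a nested gene was therefore no weaker by median than one at another snoRNA gene, although fewer nested genes had one. No test was made of these medians, since the signal has no replicate error.

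The 5 other snoRNA genes with the strongest optimal peaks had signals between those of ZK994.7 and Y38F2AR.14. They were Y53F4B.47 with 218, F59C6.15 with 194, F09G2.14 with 147, C36E8.11 with 129 and F25H2.15 with 111. All except C36E8.11 held the upstream element.

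Summits sat just upstream of the snoRNA genes. At nested genes 21 of 25 summits (84%) were upstream of the annotated start, as were 42 of 50 (84%) at other snoRNA genes. The median position was −44 bp from the start at nested genes (quartiles −64 and −28) and −55.5 bp at other snoRNA genes (quartiles −72 and −37.75). Of the remaining nested summits 3 lay inside the gene, at Y71F9AM.7, C51F7.4 and C14C10.8, and 1 lay 11 bp past its end, at W06A7.12 (these 4 were named for their position after it was seen). With the pooled relaxed list 24 of 40 nested summits were upstream (60%) and the median was −30.5 bp.

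**Figure D3:**
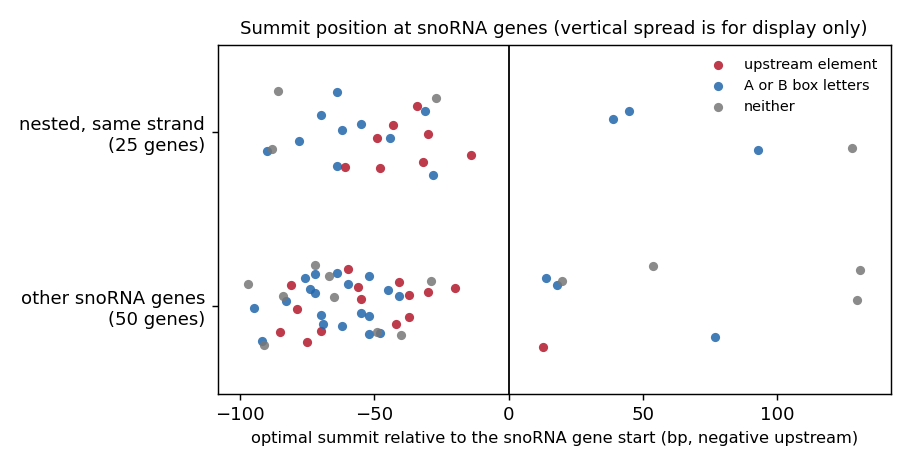
Position of the optimal summit relative to the annotated start of the snoRNA gene (x axis, bp, negative upstream) for the 25 nested and the 50 other snoRNA genes with a summit, coloured by the letters before and in the gene. Most points of both groups lie left of 0, with medians of −44 bp in nested and −55.5 bp in other genes.

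The scoring distance of 100 bp cut through few genes. The members just inside it were D1046.6, whose nearest end lay 86 bp from its summit, K11C4.6 at 88 bp and C27H6.5 at 90 bp. Just outside it were F38E11.14 at 101 bp, F55A11.10 at 118 bp and F39B2.14 at 137 bp. F55A11.10 carries the B box letters, shown in capitals in its window chrV:11782892-11783001 (plus strand).
F55A11.10: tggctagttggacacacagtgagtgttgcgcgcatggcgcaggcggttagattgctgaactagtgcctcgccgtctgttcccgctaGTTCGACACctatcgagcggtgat
F38E11.14 had a summit within 100 bp among the strongest peaks of both replicates and F55A11.10 among those of replicate 2, so they stood close to the members that were scored.

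In the pooled relaxed list 15 further members had a summit, with signals of 11.9 to 25.8 and a median of 13.6. The strongest were C41C4.16 in ulp-4, which encodes a SUMO protease, with 25.8, F59A2.7 in golg-4 with 18.3 and F58D5.12 in F58D5.5 with 17.4. F26D10.24 in hsp-1, the gene of a cytosolic Hsp70 chaperone, had 16.8, and T19C4.11 in gpa-1, which encodes a G protein alpha subunit, had 15.7. Their ranks among the 20459 relaxed peaks ran from 2867 for C41C4.16 to 7580 for T19C4.11. T19C4.11 was the one of these 5 that held the upstream element, in its window chrV:11175697-11175806 (minus strand).
T19C4.11: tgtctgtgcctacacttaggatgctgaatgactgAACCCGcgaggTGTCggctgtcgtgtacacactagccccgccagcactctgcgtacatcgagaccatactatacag
The capitals of T19C4.11 spell the same blocks as those of ZK994.7, although the peak at ZK994.7 stood at rank 51.

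Inside the host genes, summits gathered at the snoRNA genes. The bodies of the 156 hosts covered 1404 kb and held 55 optimal summits. Of these, 24 (43.6%) lay within 100 bp of a nested snoRNA gene, in 4.26% of the host sequence. That was 4.01 summits per 10 kb near nested genes and 0.231 per 10 kb in the rest of the hosts.

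Summits at host promoters and at the snoRNA genes within them were counted over hosts. Of the 156 hosts, 3 had a summit both at a member and within 500 bp of the host start, 21 at a member only, 36 at the start only and 96 at neither. A summit lay within 500 bp of 39 of 156 host starts (25%, 18.9 to 32.3), where 8.18% of all 19973 protein-coding genes had one. Within 100 bp of the start the counts were 7 of 156 hosts (4.49%), where 1.74% of all protein-coding genes had one. No peak served both a member and its host's start.

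Members whose host promoter had a summit carried one themselves in 3 of 55 cases (5.45%, 1.87 to 14.9), against 22 of 128 members whose host promoter had none (17.2%, 11.6 to 24.7). The difference was −11.7 points (−20 to −0.816). These 55 members lay in 39 hosts, and members of the same host share its promoter. The interval counts them as independent and is therefore too narrow, and no interval was made over hosts. The difference turned to 6.81 points (−5.51 to 18.2) when the pooled relaxed list scored both places. It turned to 9 points (−7.93 to 41.8) when a host summit had to lie within 100 bp of the start, which left 9 members with a bound host. Without the ribosomal protein hosts it was −9.13 points (−18.5 to 5.5), an interval that held 0. The distance from the host's preceding exon moved with this result. Of intronic members with a bound host promoter, 35 of 50 (70%) lay under 50 bp from that exon, against 15 of 100 members without (15%). The limit of 50 bp was chosen after the values were seen and lies below the nearest member with a summit. The part of this distance was not tested.

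The 3 members bound together with their host promoter were M106.6, Y43F8C.22 and C14C10.8. For M106.6 in mix-1 the signal was 107 at the snoRNA gene and 64.8 at the host start, which lay 16071 bp away. For Y43F8C.22 it was 118 at the snoRNA gene and 40.04 at the start of Y43F8C.7, 843 bp away. For C14C10.8 in ril-2 it was 40.5 at the snoRNA gene and 35.6 at the host start, 2180 bp away. In all 3 the stronger peak was the one at the snoRNA gene.

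Ribosomal protein genes, taken only by their symbols (rpl-, rps-, rla- and ubl-1), were the largest of the host groups listed by symbol. Their 21 members, in 14 genes, had 0 optimal summits (0 to 15.5% by the Wilson interval, which holds the 13.7% of all members) and 1 pooled relaxed summit (4.76%). Of the 14 hosts, 13 had an optimal summit within 500 bp of their start. The peaks at these 13 starts had signals of 34.3 to 484 with a median of 103. The strongest lay at rpl-15, with rank 5 of the optimal list, and at rps-12, with rank 23 and a signal of 348. The exception among the hosts was rps-29, whose start had no summit.

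The other host groups listed by gene symbol had no member with an optimal summit either. There were 0 of 5 in 3 genes grouped by translation factor symbols alone (iff-2, eef-1G and eif-4A3), of which 2, iff-2 and eef-1G, had a promoter summit. There were 0 of 4 in 3 splicing factor genes, of which 1 had one, and 0 of 2 in 2 chaperone genes, of which 1 had one. The 4 members in nol-56 had none, with a host promoter signal of 82.3. In the remaining hosts 25 of 147 members had a summit (17%, 11.8 to 23.9) and 21 of 133 hosts had one at their start (15.8%). All 25 bound members thus lay outside these 5 groups, most of which hold too few members to give a narrow interval.

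The 3 hosts with the most members had none with an optimal summit. They were nol-56 with K07C5.18, K07C5.10, K07C5.12 and K07C5.11, top-2, the gene of a type II DNA topoisomerase, with K12D12.6, K12D12.7 and K12D12.8, and rpl-6 with R151.11, R151.12 and R151.13. The host starts had signals of 82.3 at nol-56, 116 at top-2 and 103 at rpl-6. The nearest optimal summit was 410 bp from K07C5.11, 504 bp from R151.11 and 1605 bp from K12D12.6, and farther from the others.

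Bound members had room before them inside the intron. For the 150 members that lay in an intron of at least 1 host transcript, the distance from the end of the preceding host exon was measured to the snoRNA start. It was 68 to 1111 bp with a median of 173.5 bp in 24 members with a summit, against 6 to 9381 bp with a median of 107.5 bp in 126 without. In the ribosomal protein hosts it was 6 to 72 bp with a median of 29 bp over 21 members. With limits chosen after the values were seen, 20 of 86 members at 100 bp or more from the exon had a summit (23.3%, 15.6 to 33.2), against 4 of 64 nearer ones (6.25%, 2.46 to 15). A limit of 50 bp, below the nearest bound member, left 24 of 100 members beyond it with a summit (24%) and 0 of 50 nearer ones.

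**Figure D4:**
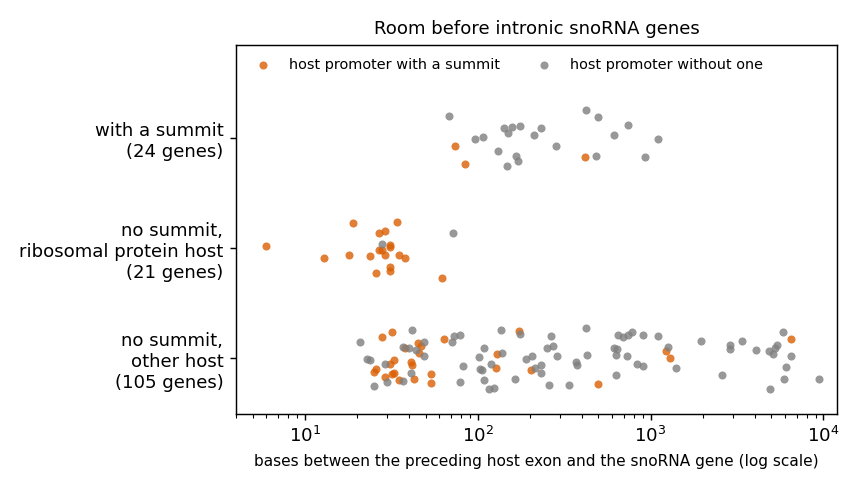
Bases between the preceding host exon and the snoRNA gene (x axis, log scale) for intronic members with an optimal summit, members without one in ribosomal protein hosts, and members without one in other hosts, coloured by whether the host promoter had a summit. Bound members start at 68 bp, whereas members in ribosomal protein hosts lie at 6 to 72 bp.

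The upstream element was common among the strongest members. It was present in 8 of 25 members with a summit (32%, 17.2 to 51.6) and 4 of 158 without (2.53%, 0.989 to 6.33). Because its letters were chosen on the bound genes, these shares are a description and no test. Upstream of other genes it was present in 25 of 163 other snoRNA genes (15.3%), 31 of 129 snRNA genes (24%), 4 of 612 tRNA genes (0.654%) and 53 of 19973 protein-coding genes (0.265%), searched on both strands of the 100 bases before the start. Of the members that held it 8 of 12 had an optimal summit, against 15 of 25 other snoRNA genes that held it.

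The 8 bound members with the element were ZK994.7, C16D9.11, Y37E3.20, C08D8.3, smy-2, T06D8.11, W04D2.7 and F01D5.12. All 8 stood on the stronger 1173 optimal peaks, with signals of 62.8 to 255 and a median of 113. All 12 members that held the element had it on the strand of the gene, with its centre 49 to 73 bases before the start and a median of 51. In ZK994.7, the line with the capitals farthest to the left, the distance was 73. The summit lay 1 to 43 bp from the centre of the element, with a median of 14, in the 8 bound members. None of the 12 had a host promoter summit, whereas 55 of all 183 members did, and none lay in a ribosomal protein gene.

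The B box letters, a textbook element that was not chosen on these genes, were searched in the gene and the 100 bases before it on both strands. GTTCNANNC was present in 9 of 25 members with a summit (36%, 20.2 to 55.5) and 16 of 158 without (10.1%, 6.33 to 15.8). It was present in 589 of 612 tRNA genes (96.2%) and in 7.3% of protein-coding windows of 100 bases before and 128 after the start. The narrower GTTCGANNC, whose matches are a part of those, was present in 8 of 25 members with a summit (32%, 17.2 to 51.6) and 6 of 158 without (3.8%, 1.75 to 8.04), against 72.2% of tRNA genes and 1.39% of protein-coding windows. The intervals of members with and without a summit did not overlap for either spelling. They did overlap among the other snoRNA genes. There GTTCNANNC was present in 16 of 50 with a summit (32%, 20.8 to 45.8) and 20 of 113 without (17.7%, 11.8 to 25.8). GTTCGANNC was present in 7 of 50 with a summit (14%, 6.95 to 26.2) and 8 of 113 without (7.08%, 3.63 to 13.4). The intervals treat genes as independent, whereas C51F7.3 and C51F7.4 share a peak and the same B box letters, so that site was counted for each of these 2 members.

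The A box-like letters, searched on both strands of the 100 bases before the start, were present in 9 of 25 members with a summit (36%) and 7 of 158 without (4.43%), against 2.64% of protein-coding windows. Inside tRNA genes 339 of 612 (55.4%) held them. These shares are a description too, since the letters were chosen on bound members. Both the A box-like and the B box letters were present in 5 of the 25 members with a summit. None of the 21 members in the ribosomal protein genes listed by symbol held the upstream element, the A box-like or the B box letters.

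Taking the upstream element first and then either box, 13 of 34 members with box letters only (38.2%, 23.9 to 55) and 4 of 137 members with neither (2.92%, 1.14 to 7.27) had an optimal summit. Among the other snoRNA genes 22 of 46 with box letters only (47.8%, 34.1 to 61.9) and 13 of 92 with neither (14.1%, 8.45 to 22.7) had one. Among genes with the element or a box, 21 of 46 nested and 37 of 71 other genes had a summit. The element and the A box-like letters were chosen on bound nested genes, which by itself lowers the bound count of nested genes with neither. The shares of nested and other genes within these classes are therefore a description, and no difference is read from them. The group with neither made up 137 of the 183 nested genes (74.9%) and 92 of the 163 others (56.4%).

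**Figure D5:**
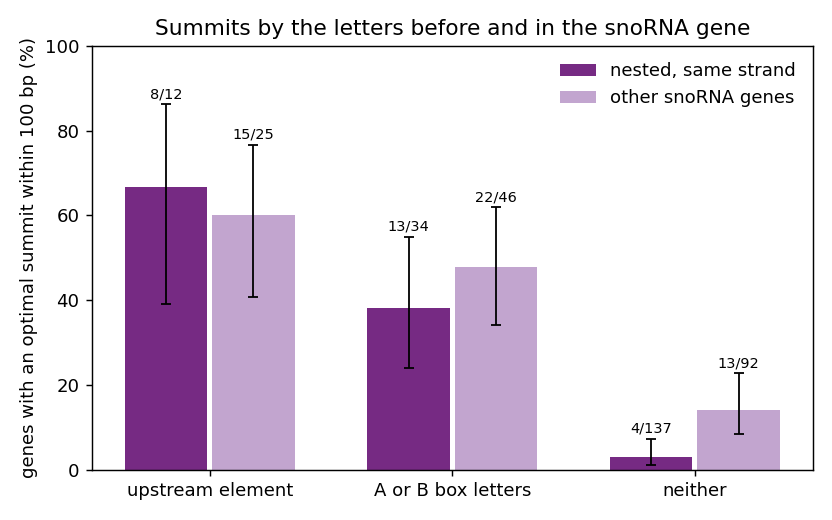
Share of genes with an optimal summit within 100 bp (percent, y axis) by the letters before and in the gene, for nested and other snoRNA genes, with the counts above 95% Wilson intervals. Among genes with neither kind of letters 4 of 137 nested and 13 of 92 other genes had a summit. These shares are a description only, since the letters were partly chosen on bound nested genes.

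The 4 bound members without any of these letters, as spelled in the search, were D1046.6, W08G11.6, W06A7.12 and K11C4.6, with signals of 33.9 to 67.2. Their peaks were among the weaker at nested genes, and 2 of the 4 stood on the stronger 1173 optimal peaks. W08G11.6 and K11C4.6 hold TGGNNNA before GG with a longer gap than the 2 bases searched. So does F38E11.14, which had no optimal summit. How many members hold such a spelling was not counted, so the group with neither lacks only the exact spellings searched.

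Room and letters overlapped among the members. Of the 50 intronic members under 50 bp from the preceding exon, 0 held the upstream element and 4 held box letters. Of members at 50 bp or more, 20 of 37 with the element or a box had a summit (54.1%, 38.4 to 69), against 4 of 63 with neither (6.35%, 2.5 to 15.2). As the letters were partly chosen on bound members, these shares describe the members and test nothing.

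A run of 4 T, which ends transcripts of RNA polymerase III, was present on the gene's strand within 30 bases after the end of 23 of 25 members with a summit (92%, 75 to 97.8) and 83 of 158 without (52.5%, 44.8 to 60.2). In ribosomal protein hosts it was present after 8 of 21 members (38.1%). After other snoRNA genes it was present in 33 of 50 with a summit (66%) and 44 of 113 without (38.9%).

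The kind of snoRNA could be read from few members. TGATGA in the first 20 bases with CTGA in the last 20, the letters of boxes C and D, was present in 1 of 25 members with a summit and 5 of 158 without. The bound one was C51F7.3, whose whole gene, chrV:12303708-12303783 (plus strand), is shown with these letters in capitals.
C51F7.3: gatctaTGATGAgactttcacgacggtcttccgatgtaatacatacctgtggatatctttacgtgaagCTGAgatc
ACA in the last 6 bases was present in 9 of 25 members with a summit (36%) and 49 of 158 without (31%), and in 15 of the 21 members in ribosomal protein genes (71.4%). The shares with and without a summit had overlapping intervals, 20.2 to 55.5 and 24.3 to 38.6.

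Bound members with the upstream element were short. Their median length was 74.5 bp over 8 genes, with 7 of 8 at 90 bp or less, whereas bound members with box letters had a median of 128 bp over 13 genes, with 10 of 13 above 90 bp. Among other snoRNA genes with a summit the order was the reverse, with a median of 113 bp over 15 genes with the element and 74.5 bp over 22 genes with box letters. All 183 members had a median of 128 bp (54 to 325).

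Within 100 bp of the summit 9 of the 25 bound members had another annotated non-coding gene, each of the broad ncRNA class, and none had a tRNA gene. Whether the peak belonged to the snoRNA gene or to that neighbour was not tested. Among other snoRNA genes with a summit 13 of 50 had another non-coding gene that near.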

How the data were processed

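ChIP-seq peak lists of 2 replicates were read as deposited on ce11. Per the deposited file descriptions, relaxed lists of peaks and background were made for each replicate and for the pooled data against a control, and the optimal list was derived from these by the irreproducible discovery rate. Signal values are the authors' own, on an undefined scale, and served only within a list. The deposited summit offset placed each summit. The aligner, the peak caller, the threshold and the depth are not given in the sources used here, and the ce10 lists were not used.

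Genes came from Ensembl release 115 and sequence from RefSeq's WBcel235 (Python 3.11.15, pandas 2.3.3, scipy 1.17.1). Each gene took the strongest summit within 100 bp. Replicates entered through ranks (peaks overlapping by at least 1 bp) and through each relaxed list's 2346 strongest peaks. Shares have 95% Wilson and differences 95% Newcombe intervals, with no chance test. The genes named were the 15 members with the strongest optimal peaks, 3 just inside and 3 just outside 100 bp, 5 with the strongest relaxed peak and no optimal one, those of the 3 hosts with most members and the 5 strongest other snoRNA genes, with their hosts. Further names are stated as such or complete a count. Members and lists were chosen with earlier results of these data known. The counting was tested on simulated peaks. Alternatives changed the distance, the peak list, the replicate, nesting and the searched window.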

Additional observations from a re-analysis of the deposited data

How the results depend on the processing

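No paired analysis was possible because the 2 replicates form 1 group. Of 54 alternatives, 39 stayed within the interval of the value reported, 13 moved outside it and 2 reversed a direction. The share of nested genes with an optimal summit (13.7%) was 1.64% at 0 bp, 8.2% at 50 bp and 20.8% at 500 bp, and that with a pooled relaxed summit (21.9%) was 4.92% at 0 bp, 13.1% at 50 bp, 29% at 200 bp and 43.7% at 500 bp. The difference between nested and other genes was below 0 in all 15 alternatives tried, from −19.7 to −2.04 points. It moved to −2.04 points at 0 bp (−6.3 to 1.61), −3.46 points at 50 bp and −7.48 points with the stronger 1173 optimal peaks (−15.1 to −0.0179). Leaving out either replicate gave shares of 13.7% to 14.2% and a difference of −15.2 points. The host comparison (−11.7 points) reversed to 6.81 points with the pooled relaxed list and 9 points within 100 bp of the host start, and was −13.5 to −13.2 points without either replicate. The cause was not tested. The median rank of the peaks (800.5) was 1733.0 in the longer relaxed list and 770.5 to 802.5 in single replicates, and the median position −43 to −42 bp. With 50 bases searched before the gene, the element or box letters were present in 9 of 25 members with a summit (36%) and 16 of 158 without (10.1%). With 100 bases they were present in 21 of 25 (84%) and 25 of 158 (15.8%). Most members with a summit that held letters thus lost them at 50 bases, whereas most of those without a summit kept them. Some alternatives were added after the data were seen: leaving out summits near protein-coding starts, opposite-strand genes alone, no ribosomal protein hosts, and single replicates for the host comparison. With unknown depth and no read counts, a member without a summit is one at which none was detectable, and intervals do not cover the choice of list.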

Other observations

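Other small genes nested on the same strand of protein-coding genes differed by class. An optimal summit lay within 100 bp of 37 of 167 nested tRNA genes (22.2%, 16.5 to 29), against 95 of 445 other tRNA genes (21.3%). It lay within 100 bp of 6 of 37 nested snRNA genes (16.2%, 7.65 to 31.1), against 14 of 92 other snRNA genes (15.2%). In the broad ncRNA class the nested share was the lower one, at 47 of 1109 nested genes (4.24%, 3.2 to 5.59), against 422 of 6655 others (6.34%, 5.78 to 6.95), as it was in snoRNA genes (13.7% of nested, 30.7% of other). Among miRNA genes 1 of 74 nested (1.35%) and 2 of 187 others (1.07%) had a summit, and among piRNA genes 0 of 2872 nested (0 to 0.134%) and 10 of 12491 others (0.0801%). Differences between classes were not tested.

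By chromosome, 12 of 36 nested genes on V had a summit (33.3%, 20.2 to 49.7), against 7 of 19 other snoRNA genes there (36.8%). On III it was 1 of 38 nested genes (2.63%, 0.466 to 13.5), against 6 of 16 others (37.5%, 18.5 to 61.4). The nested share was 17.9% on IV, 11.4% on II, 8.33% on I and 0 of 10 on X, against 25.8% of others on IV, 38.9% on II, 28.9% on I and 17.4% on X. Chromosome III held 10 of the 21 members in ribosomal protein genes. TAATTA, a core recognised by many homeodomains, was present within 50 bp of 0 of the 25 summits (0 to 13.3), against 4.3% of protein-coding starts. GAGAGA was present at 3 of the 25 summits (12%, 4.17 to 30), against 7.34% of protein-coding starts, and CACGTG at 0 of the 25 (0 to 13.3), against 1.86%.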
